A study of Mus musculus with 12 samples.

Results

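In mammalian germ cells, transposons are kept silent by methylation of their DNA and of lysine 9 of histone H3 (H3K9), and 10 genes of these pathways were followed in testes in which RNA of the retrotransposon LINE-1 (L1) was high. The 10 were *Dnmt1*, *Dnmt3a*, *Dnmt3b*, *Dnmt3l* and *Uhrf1*, which act on DNA, and *Setdb1*, *Trim28*, *Ehmt2*, *Ehmt1* and *Suv39h2*, which act on H3K9. They were picked by name from the 20620 genes of the count table, and all 10 had enough counts to be tested in each comparison. The samples were whole testes of C57BL/6 mice at postnatal day 16 (P16), either *Mael*+/- (one mutant copy, the controls) or *Mael*-/- (no intact copy of *Mael*, which the piRNA pathway needs to repress transposons). The design text calls the 3 extracts of each genotype biological replicates. Testes were collected in cycloheximide, which holds ribosomes on RNA, and each of the 6 extracts gave 1 library of total RNA and 1 of ribosome footprints (the RNA fragments that ribosomes shield from nuclease), so 12 libraries were compared. No wild-type testes were among these groups. In whole testes, fewer cells of a type and less RNA per cell cannot be told apart.

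New methyl groups are placed on DNA by DNMT3A and DNMT3B, which work with the inactive cofactor DNMT3L, and are copied after replication by DNMT1, which UHRF1 guides to hemimethylated sites. On chromatin, TRIM28 is brought to transposons by zinc finger proteins and recruits SETDB1, which trimethylates H3K9. The partners EHMT2 (G9a) and EHMT1 (GLP) mainly dimethylate the same residue, and SUV39H2, which is most abundant in testis, trimethylates it at pericentromeric repeats and L1 elements. In the male germ line most DNA methylation of L1 is laid down before birth, when *Dnmt3l* is most active, and later stages rely on upkeep and on H3K9 methylation.

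The sequences around the start codons of 9 of the genes are given first, because footprints were counted from the start codon onward. Capitals mark the start codon, with 9 bases before and 12 after it, from the principal GENCODE vM21 transcript of each gene on GRCm38 (by APPRIS rank, then the longest coding sequence). *Ehmt2* is left out since its transcript there has only 3 bases before the start codon.
Dnmt1: acctgcaagATGccagcgcgaaca
Dnmt3a: tgcccagcaATGccctccagcggc
Dnmt3b: caggaaacaATGaagggagacagc
Dnmt3l: attacatcaATGggttcccgggag
Uhrf1: atcggcatcATGtggatccaggtt
Setdb1: ggccaaagcATGtcctccctccct
Trim28: ggcgtgtgaATGgcggcctcggcg
Ehmt1: gcccgggccATGgccgccgctgat
Suv39h2: ctccgcaagATGgcggcggccagg
An A or G 3 bases before the start codon, the strongest feature of the vertebrate start context, is found in 85.3% of 18687 genes. It was present in the sequences above except those of *Dnmt3l* and *Trim28*, the genes with the lowest and the highest level. The transcripts differed more in what surrounds the coding part. Coding sequence made up 28.2% of the *Dnmt3a* transcript and 33.1% of that of *Suv39h2*, which end in 3′ untranslated regions of 6696 and 2808 bases, against 90.6% for *Dnmt1* and 84.3% for *Setdb1*.

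Promoters of 3 genes are given as examples. Each is the 250 bases upstream of a RefSeq start on GRCm38.p6, 5′ to 3′ on the strand of the gene. Capitals mark matches on either strand to the GC box, whose letters are GGGCGG. They also mark the CCAAT box, searched by the letters of its name, and the E2F letters, which are TTCCCGC. The TATA letters TATAAA were searched in the same way. *Trim28* (chr7:13023902-13024151, + strand) is shown as the gene with the highest level, *Uhrf1* (chr17:56303087-56303336, + strand, the first of 2 starts) as a gene coupled to replication, and *Dnmt3l* (chr10:78042037-78042286, + strand, the first of 3 starts) as the gene with the lowest level.
Trim28: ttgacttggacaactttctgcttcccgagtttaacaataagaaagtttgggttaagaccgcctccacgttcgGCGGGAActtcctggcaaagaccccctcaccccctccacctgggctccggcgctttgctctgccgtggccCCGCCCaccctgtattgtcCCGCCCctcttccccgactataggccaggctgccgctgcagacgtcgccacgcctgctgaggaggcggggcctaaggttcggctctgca
Uhrf1: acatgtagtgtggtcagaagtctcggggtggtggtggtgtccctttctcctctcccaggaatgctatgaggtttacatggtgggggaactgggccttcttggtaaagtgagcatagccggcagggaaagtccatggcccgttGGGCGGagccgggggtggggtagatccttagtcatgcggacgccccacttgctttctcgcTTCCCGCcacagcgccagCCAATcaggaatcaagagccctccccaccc
Dnmt3l: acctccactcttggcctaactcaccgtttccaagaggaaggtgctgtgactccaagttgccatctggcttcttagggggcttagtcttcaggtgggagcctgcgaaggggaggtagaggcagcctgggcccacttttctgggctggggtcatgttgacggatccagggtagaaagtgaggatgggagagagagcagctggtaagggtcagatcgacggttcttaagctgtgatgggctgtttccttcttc
The *Trim28* window held 17 CpG, the *Uhrf1* window 10 and the *Dnmt3l* window 5, against a median of 6 over 32851 promoters. All 3 starts of *Dnmt3l* were poor in CpG, with 3 to 5. The other 9 genes had at least 1 window above the median, up to 40 for *Dnmt3a*. The fewest CpG of all 18 windows, 2, were in a window of *Dnmt1*, whose richest window had 26. The E2F letters were found in *Trim28*, *Uhrf1* and *Suv39h2* and in 3.82% of all promoters, and the GC box in at least 1 window of all 10 genes and in 32.7% of all promoters. The CCAAT box was found in *Dnmt1*, *Setdb1* and *Uhrf1* (33.8% of all promoters) and the TATA letters in none of the 10 (12.4%). These matches describe letters in a window and say nothing of what binds there. Genes were counted over up to 3 windows each, while the median and the shares of all promoters are per window. The gene counts and those shares therefore do not compare directly.

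The 6 RNA libraries held between 13697267 and 27462358 gene counts and the 6 footprint libraries between 7609932 and 13233565, of which the 10 genes took 0.206 to 0.245% and 0.233 to 0.268%. *Mael* itself had 173 ± 39.9 CPM (counts scaled to a common library size with TMM factors, mean ± SD, n = 3) in *Mael*+/- RNA, and 1, 2 and 0 counts in the *Mael*-/- libraries. L1 RNA was high in the mutants: copies of the young families L1Md_A and L1Md_T summed to 31.7 ± 7.96 and 69.2 ± 14.9 CPM in *Mael*+/- testes and to 236 ± 58.5 and 433 ± 112 in *Mael*-/- testes (SD, n = 3), which is 7.44-fold and 6.25-fold. Copies of IAPEz-int, a retrovirus-like family known as a target of SETDB1 and TRIM28, summed to 144 ± 17.1 and 156 ± 20.1 CPM in RNA, and to 131 ± 11.8 and 94.1 ± 6.54 CPM in footprints, where the *Mael*-/- libraries were all lower. One extract stood apart. The summed level of 12 markers of pachytene spermatocytes was 908, 321 and 346 CPM in replicates 1 to 3 of *Mael*+/- RNA and 260.4 to 299.6 in the mutants, and that of 10 early meiotic markers was 2238, 885 and 1012 in the controls and 859 to 1208 in the mutants. *Mael*+/- replicate 1 thus held more meiotic RNA than the other 5 extracts, and values without it are given below for some of the genes and lists. Markers of spermatogonia and Sertoli cells, the other main cells of P16 testes, were detected in all libraries, at 824 to 1025 and 6868 to 7709 CPM in *Mael*+/- RNA and 834 to 895 and 7014 to 7626 in *Mael*-/- RNA. Leydig cell markers summed to 551 to 813 CPM in the controls and 541 to 838 in the mutants, and 5 macrophage markers to 86.8 to 135 and 122 to 137.

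The first question was whether loss of *Mael*, with its rise of L1, came with a change in the genes that methylate transposon DNA. *Dnmt1*, *Dnmt3a*, *Dnmt3b*, *Dnmt3l* and *Uhrf1* were all detected in RNA and footprints, and none passed the test between genotypes. *Dnmt3c*, another gene of the DNMT3 family, was not in the count table under that name or as *Gm14490*, so the question stays unanswered for it. Differences of *Dnmt1* and *Dnmt3a* were close to 0, while *Dnmt3b* and *Uhrf1* had lower means in *Mael*-/- testes that did not pass the test.

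*Dnmt1* (chr9:20907209-20959888, GRCm38, gene spans from GENCODE vM21 here and below) had 283, 336 and 287 CPM in replicates 1 to 3 of *Mael*+/- RNA and 315, 305 and 312 in those of *Mael*-/- RNA. In footprints it had 354, 407 and 362 CPM in *Mael*+/- libraries and 412, 387 and 355 in *Mael*-/- libraries. In both assays the values of the genotypes overlapped, and in RNA the 3 *Mael*-/- libraries lay between the *Mael*+/- libraries. The log2 fold change from *Mael*+/- to *Mael*-/- was 0.040 (SE 0.090) in RNA and 0.038 (SE 0.10) in footprints. Translation efficiency, meaning the change of footprints beyond that of RNA, differed by -0.0008 (SE 0.13) on the log2 scale (edgeR adjusted p 0.985, 0.998 and 1.0).

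*Uhrf1* (chr17:56303321-56323486), the partner that leads DNMT1 to replicated DNA, had 117, 132 and 113 CPM in *Mael*+/- RNA and 96.1, 110.3 and 109 in *Mael*-/- RNA. Its footprints stood at 115, 103 and 93.2 CPM in *Mael*+/- libraries and 92.9, 102 and 94.4 in *Mael*-/- libraries. In RNA all 3 *Mael*-/- libraries were below all 3 *Mael*+/- libraries, and it was the sole member of the 10 without overlap there, where 10.3% of all genes tested had none. In footprints the genotypes overlapped. Its log2 fold change was -0.20 (SE 0.10) in RNA, with an unadjusted p of 0.0641 and an edgeR adjusted p of 0.939, and -0.11 (SE 0.10) in footprints (adjusted p 0.998). Without *Mael*+/- replicate 1 the RNA value was -0.22 and the footprint value -0.029.

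*Dnmt3a* (chr12:3806007-3914443), a de novo methyltransferase, had 217, 265 and 256 CPM in *Mael*+/- RNA and 246, 236 and 221 in *Mael*-/- RNA. In footprints the values were 178, 211 and 199.7 CPM in *Mael*+/- libraries and 196, 203 and 195 in *Mael*-/- libraries. The lowest library of each assay was *Mael*+/- replicate 1 and the highest *Mael*+/- replicate 2, so the *Mael*-/- values lay within those of the controls. The log2 fold change was -0.070 (SE 0.10) in RNA and 0.012 (SE 0.10) in footprints (edgeR adjusted p 0.982 and 0.998). Without *Mael*+/- replicate 1 these were -0.15 and -0.056, and the RNA value was -0.012 without *Mael*+/- replicate 2.

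*Dnmt3b* (chr2:153649450-153687730), the second de novo methyltransferase, had 88.7, 126 and 94.4 CPM in *Mael*+/- RNA and 78.4, 92.0 and 92.1 in *Mael*-/- RNA. It had 55.4, 72.4 and 61.1 CPM in *Mael*+/- footprints and 52.7, 53.5 and 56.8 in *Mael*-/- footprints. *Mael*+/- replicate 2 was the highest library in both assays, and the remaining 5 extracts lay closer together. The log2 fold change was -0.24 (SE 0.14) in RNA and -0.21 (SE 0.11) in footprints, the lowest of the 10 genes in each assay, and neither passed the test (edgeR adjusted p 0.98 and 0.998). Without *Mael*+/- replicate 1 they were -0.33 and -0.30, and without the *Mael*+/- replicate 2 library of that assay -0.064 and -0.10.

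*Dnmt3l* (chr10:78041947-78063622), the cofactor of prenatal methylation, was near the detection limit, with 26, 49 and 27 counts in *Mael*+/- RNA and 21, 27 and 41 in *Mael*-/- RNA. Its footprints numbered 18, 10 and 18 in *Mael*+/- and 11, 22 and 16 in *Mael*-/- libraries. In CPM this was 1.13, 1.79 and 1.02 against 1.53, 1.34 and 1.5 in RNA. No order of the genotypes could be read from these counts, which overlapped in both assays. The 95% interval of its log2 fold change spanned -0.52 to 0.80 for RNA and -0.94 to 0.81 for footprints, which is 0.698-fold to 1.74-fold and 0.521-fold to 1.75-fold.

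The same question was asked of the genes that methylate H3K9, and again none passed the test. *Setdb1* had slightly higher means in *Mael*-/- testes and *Trim28* slightly lower ones, while *Ehmt2*, *Ehmt1* and *Suv39h2* were close to 0 in both assays.

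*Trim28* (chr7:12999114-13031035), the scaffold that recruits SETDB1, had 571, 570.3 and 501 CPM in *Mael*+/- RNA and 465, 506 and 564 in *Mael*-/- RNA. In footprints it had 694, 641 and 608 CPM in *Mael*+/- libraries and 615, 637 and 591 in *Mael*-/- libraries. The genotypes overlapped in both assays. Its log2 fold change was -0.10 (SE 0.10) in RNA and -0.076 (SE 0.095) in footprints (edgeR adjusted p 0.982 and 0.998).

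*Setdb1* (chr3:95323525-95357202), the methyltransferase that TRIM28 recruits, had 233, 226 and 203 CPM in *Mael*+/- RNA and 237, 269 and 231 in *Mael*-/- RNA. In footprints the values were 299.6, 256 and 248 CPM in *Mael*+/- libraries and 291, 315 and 269.8 in *Mael*-/- libraries. *Mael*-/- replicate 2 was the highest library and *Mael*+/- replicate 3 the lowest in both assays, and the genotypes overlapped. From *Mael*+/- to *Mael*-/- the log2 fold change was 0.15 (SE 0.094) in RNA and 0.13 (SE 0.11) in footprints, the highest of the 10 in each assay (edgeR adjusted p 0.982 and 0.998).

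*Ehmt2* (chr17:34898469-34914052), or G9a, had 348, 510.0 and 409.9 CPM in *Mael*+/- RNA and 417, 423 and 444 in *Mael*-/- RNA. In footprints it had 461, 644 and 501 CPM in *Mael*+/- libraries and 490.5, 544 and 526 in *Mael*-/- libraries. The *Mael*+/- libraries spread widely, with replicate 1 lowest and replicate 2 highest in both assays, and the *Mael*-/- libraries lay between them. The log2 fold change was 0.017 (SE 0.13) in RNA and -0.040 (SE 0.13) in footprints, and without *Mael*+/- replicate 1 it was -0.10 and -0.14.

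*Ehmt1* (chr2:24789928-24919614), or GLP, the partner of G9a, had 164, 189.9 and 171 CPM in *Mael*+/- RNA and 177, 171 and 164 in *Mael*-/- RNA. In footprints the values were 200.2, 251 and 209.5 CPM in *Mael*+/- libraries and 216, 231 and 214 in *Mael*-/- libraries. Again *Mael*+/- replicate 2 was the highest library in both assays, and the genotypes overlapped. Its log2 fold change was -0.037 (SE 0.087) in RNA and -0.0008 (SE 0.11) in footprints.

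*Suv39h2* (chr2:3455815-3475031), the testis-enriched H3K9 methyltransferase, had 73.1, 68.1 and 67.1 CPM in *Mael*+/- RNA and 64.7, 70.7 and 63.8 in *Mael*-/- RNA. In footprints it had 42.2, 46.2 and 40.4 CPM in *Mael*+/- libraries and 40.3, 46.5 and 47.9 in *Mael*-/- libraries. The 12 libraries lay close together within each assay and the genotypes overlapped. Its RNA differed by -0.064 (SE 0.089) on the log2 scale, its footprints by 0.065 (SE 0.11) and its translation efficiency by 0.13 (SE 0.13).

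**Figure D1:**
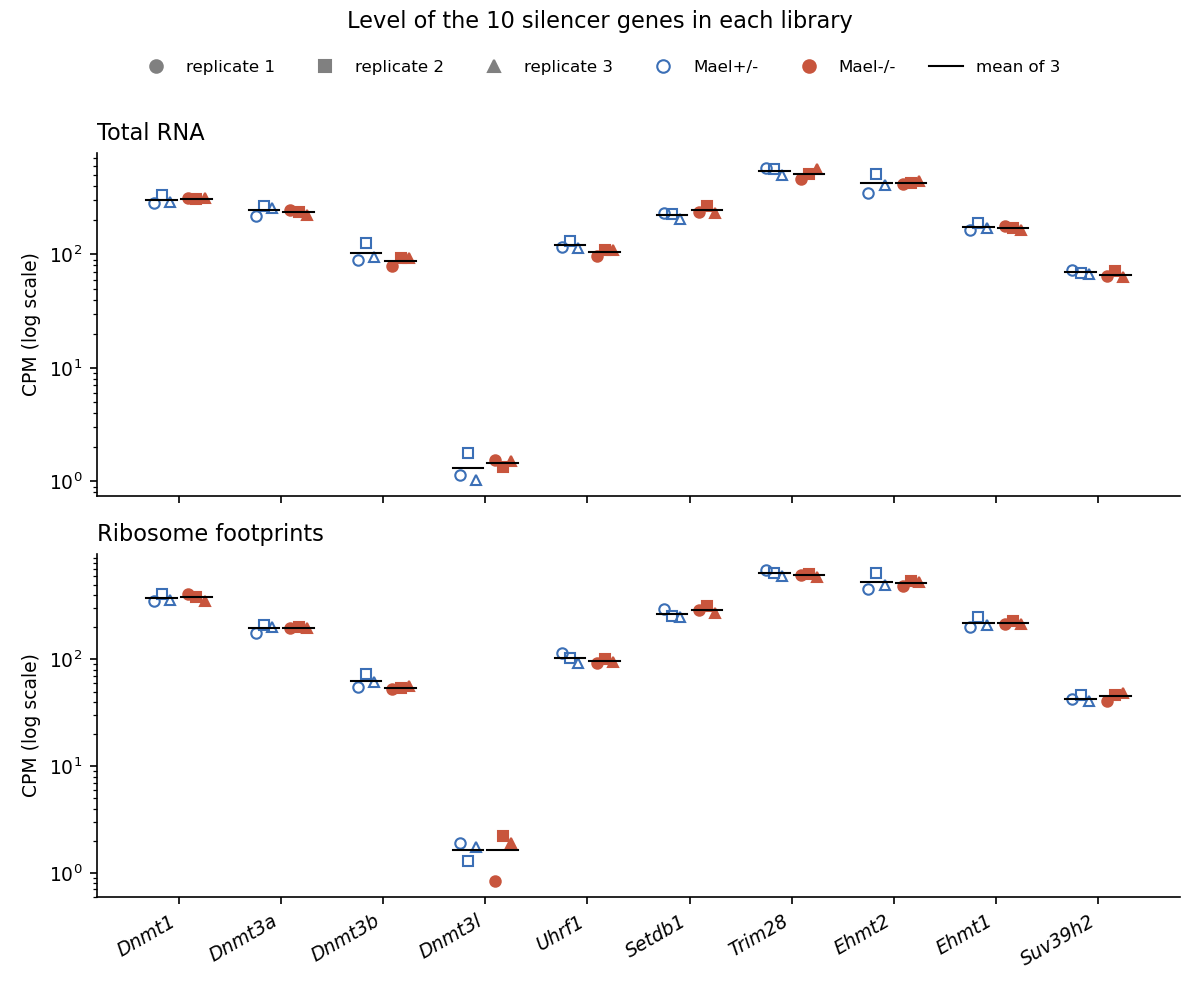
Level of each gene (CPM, log scale) in the 6 RNA libraries (top) and the 6 footprint libraries (bottom), with open blue symbols for Mael+/-, filled red symbols for Mael-/-, a symbol shape for each replicate and a line at the mean of 3. The genotypes overlap for all genes in both assays except Uhrf1 in RNA, and Dnmt3l lies near 1 to 2 CPM while the other 9 genes lie above 40.

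Across the 10 genes, 0 were called between genotypes (edgeR quasi-likelihood test, adjusted p under 0.05) in RNA, where 17 of 14685 genes were (0.116%), 0 in footprints, where 8 of 13500 were (0.0593%), and 0 in translation efficiency, where 0 of 14374 were (0%). None of the 10 had an unadjusted p under 0.05 in any of the 3 comparisons, against 5.4%, 4.33% and 0.577% of all genes tested. The smallest adjusted p among them was 0.939 in RNA and 0.998 in footprints, and DESeq2 and the other settings tried called none either. In RNA 4 genes were above 0 and 6 below, with a median log2 fold change of -0.051 (all genes -0.0013), and in footprints also 4 and 6, with a median of -0.020 (all genes -0.0086). In footprints the genotypes overlapped for all 10 genes, where they did not for 9.09% of all genes tested.

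How large a change the data leave room for was read from the 95% intervals. For the 9 genes other than *Dnmt3l* the intervals lay within 0.688-fold to 1.29-fold in RNA, 0.725-fold to 1.29-fold in footprints and 0.721-fold to 1.35-fold in translation efficiency. A doubling or a halving over the whole testis therefore lay outside the interval of each of these 9 genes in the main fit. A change confined to some cells of the testis could be diluted in these values, and its size was not tested. The intervals of translation efficiency come from the fit without the extract as a term. With that term the SE of *Ehmt2* was 0.096 against 0.19, and that of *Dnmt3b* 0.10 against 0.19. Without *Mael*+/- replicate 1 the log2 fold changes of all 10 genes lay between -0.33 and 0.19 in RNA and between -0.30 and 0.21 in footprints. Those of translation efficiency lay between -0.030 and 0.20, and 0 genes were called in any of the 3.

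**Figure D2:**
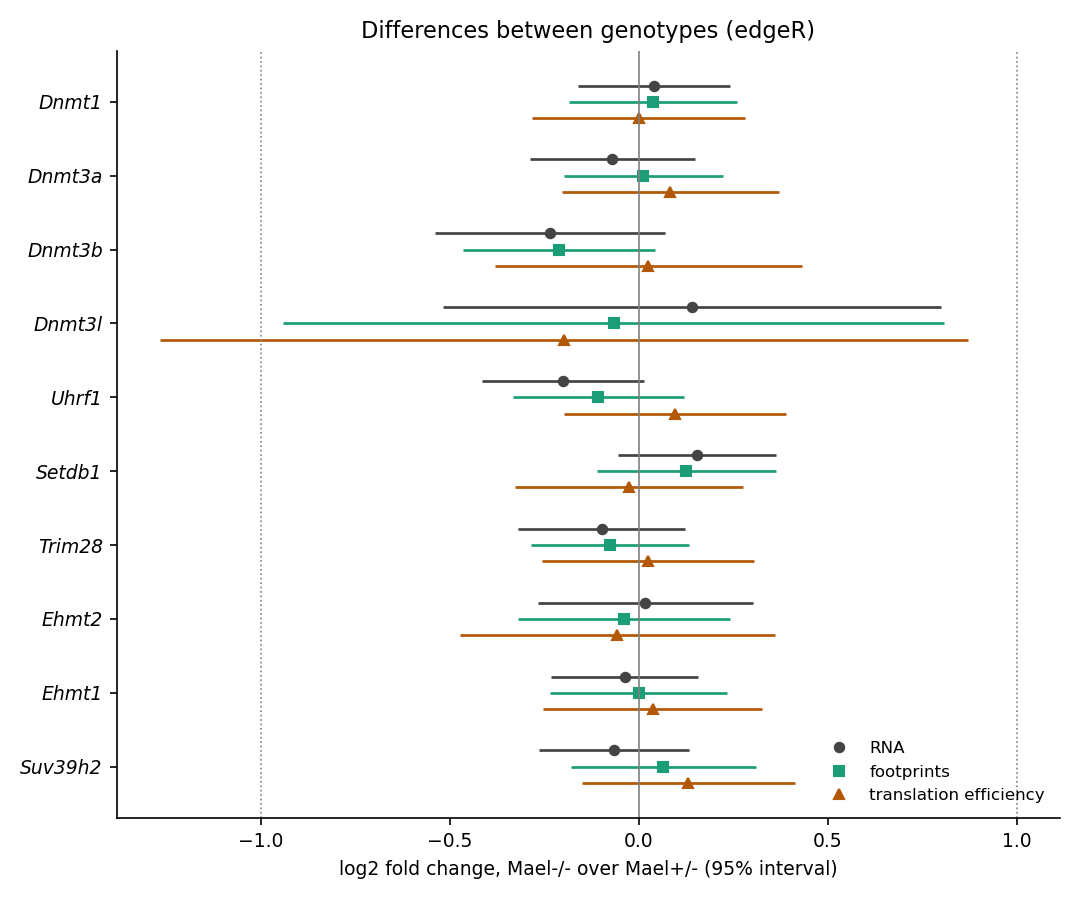
log2 fold change of each gene from Mael+/- to Mael-/- with its 95% interval, for RNA (circles), footprints (squares) and translation efficiency (triangles), with dotted lines at a halving and a doubling. Every interval crosses 0, those of 9 genes stay between the dotted lines, and that of Dnmt3l is the widest.

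The second question was how the 10 genes rank against each other, which was read per kilobase of annotated exon for RNA and of coding sequence for footprints. *Trim28* was the highest in all 4 groups and *Dnmt3l* the lowest by far. In *Mael*+/- RNA, *Trim28* stood at 169 ± 12.4 CPM per kilobase and *Ehmt2* at 103 ± 19.8 (SD, n = 3). *Dnmt1* (47.9 ± 4.67) and *Setdb1* (47.4 ± 3.38) came next and overlapped. They were followed by *Uhrf1* (33.0 ± 2.70) and *Ehmt1* (29.3 ± 2.24), which overlapped, then by *Dnmt3a* (24.8 ± 2.61) and *Dnmt3b* (23.8 ± 4.66), which overlapped too. *Suv39h2* (16 ± 0.743) and *Dnmt3l* (0.492 ± 0.157) closed the order, and the neighbours not named as overlapping had separate ranges. In *Mael*-/- RNA the order was the same except that *Setdb1* (52.8 ± 4.34) stood before *Dnmt1* (49.3 ± 0.792), with overlap. Among the genes tested, the 9 genes other than *Dnmt3l* ranked between percentiles 62.2 and 98.2 of RNA per kilobase in *Mael*+/- testes, and *Dnmt3l* was at percentile 10.1.

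The order differed in footprints. *Dnmt3a*, at rank 7 in RNA, was at rank 4 in *Mael*+/- footprints at 72.0 ± 6.18 CPM per kilobase, overlapping with *Dnmt1* (77.0 ± 5.93) and *Setdb1* (68.2 ± 7.13). *Dnmt3b*, at rank 8 in RNA, was at rank 9 with 24.4 ± 3.37, below *Suv39h2* (29.99 ± 2.07). *Uhrf1*, at rank 5 in RNA, was at rank 7 with 44.2 ± 4.61, below *Ehmt1* (56.4 ± 6.96). The pair of de novo methyltransferases thus had like levels per kilobase in RNA and unlike ones in footprints. The ratio of *Dnmt3a* to *Dnmt3b* per kilobase was 1.07, 0.918 and 1.18 in *Mael*+/- RNA, whereas footprints of the same extracts gave 3.04, 2.76 and 3.10. In *Mael*-/- testes it was 1.37, 1.12 and 1.05 in RNA, against 3.52, 3.59 and 3.24 in footprints. In all 6 extracts the footprint ratio was above the RNA ratio. The RNA levels rest on the full annotated exons, 9913 bases for *Dnmt3a* and 4326 for *Dnmt3b*, and whether testes use the whole 3′ end of *Dnmt3a* was not tested.

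Shares and ratios among partners were compared between genotypes as well, 18 in all, counting each assay, many of which share a gene. The ratio of *Ehmt2* to *Ehmt1* is counted both per kilobase and by counts, which differ only by a fixed factor within an assay. The DNMT shares were planned on summed counts and are given here per kilobase. The ratio of *Ehmt2* to *Ehmt1* was planned, and the other ratios were not. Those join genes whose own differences are given above, so they add no separate result. With 3 samples against 3 the smallest two-sided exact permutation p is 0.1, so none could pass 0.05, and that p says only that the ranges are apart. The ratio of *Trim28* to *Setdb1* per kilobase was 3.51, 3.62 and 3.54 in *Mael*+/- RNA and 2.81, 2.70 and 3.50 in *Mael*-/- RNA. In footprints it was 3.63, 3.94 and 3.85 in *Mael*+/- extracts, against 3.31, 3.17 and 3.43 in *Mael*-/- extracts. The ranges were apart in both assays, narrowly so in RNA, with the *Mael*-/- extracts lower (exact permutation p 0.1 in each). Ranges were apart in 7 of the 18. For single genes they were apart in 10.3% of all genes tested in RNA and 9.09% in footprints, and no such share was taken for ratios. *Dnmt3b* made up 23.4, 26.5 and 23.3% of the summed RNA of the 4 DNMT genes per kilobase in *Mael*+/- and 19.4, 22.6 and 22.7% in *Mael*-/- testes. Of their footprints it made up 13.3, 14.7 and 13.7% in *Mael*+/- and 11.5, 11.7 and 13.1% in *Mael*-/- testes. These ranges were apart too (exact permutation p 0.1 in each). So were the *Dnmt1* share in RNA, at 51.2, 48.5 and 48.7% in *Mael*+/- and 53.5, 51.5 and 52.9% in *Mael*-/- testes, and the ratio of *Dnmt3a* to *Dnmt3b* in footprints given above. The last was the ratio of *Dnmt1* to *Uhrf1* in RNA, at 1.40, 1.48 and 1.48 in *Mael*+/- and 1.91, 1.61 and 1.66 in *Mael*-/- testes. The ratio of *Ehmt2* to *Ehmt1* overlapped between genotypes, at 3.08, 3.90 and 3.48 in *Mael*+/- RNA and 3.42, 3.58 and 3.94 in *Mael*-/- RNA.

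The third comparison set footprints against RNA within each genotype, to place each gene against the average gene. By counts, *Dnmt1*, *Setdb1*, *Trim28* and *Ehmt1* had more footprints per RNA read than the average gene in both genotypes, and *Dnmt3b* and *Suv39h2* had fewer. RNA was counted over whole mRNAs and footprints over coding sequence alone, so a long untranslated region lowers this value by itself. Once both counts were put per length, *Dnmt1*, *Setdb1*, *Trim28* and *Ehmt2* lay below the average gene and *Dnmt3a* above it. *Dnmt3b* was below it in both forms.

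In *Mael*+/- testes 6 of the 10 genes were called by counts (edgeR adjusted p under 0.05), 4 higher and 2 lower, where 48.1% of 14259 genes were called, 23% higher and 25.1% lower. In *Mael*-/- testes it was 7 of 10, 5 higher and 2 lower, against 67.2% of 14035 genes, 33.1% higher and 34.1% lower. The total called was thus somewhat above the share of all genes in *Mael*+/- testes and near it in *Mael*-/- testes. In both, a larger part of the 10 than of all genes was called higher, a difference that was not tested. With the extract as a term, since both libraries came from the same extract, 8 of 10 were called in *Mael*+/- testes and 7 of 10 in *Mael*-/- testes, against 69.4% and 70.9% of all genes. The count in *Mael*+/- testes depended on single libraries, at 2 without RNA replicate 3 and 3 without footprint replicate 2.

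The values per extract were steady for most genes. The log2 ratio of footprint to RNA counts of *Dnmt3b*, relative to the median gene, was -0.59, -0.70 and -0.52 in the *Mael*+/- extracts and -0.47, -0.67 and -0.59 in the *Mael*-/- extracts. That of *Suv39h2* was -0.71, -0.46 and -0.63 in the *Mael*+/- extracts and -0.58, -0.50 and -0.30 in the *Mael*-/- extracts. Both genes were below the median gene in 6 of 6 extracts. Their fitted log2 values in *Mael*+/- testes were -0.61 (SE 0.16) and -0.60 (SE 0.11) (edgeR adjusted p 0.0125 and 0.00175).

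For *Dnmt1* the ratio was 0.41, 0.38 and 0.44 in the *Mael*+/- extracts and 0.49, 0.45 and 0.30 in the *Mael*-/- extracts. For *Setdb1* it was 0.45, 0.28 and 0.39 in the *Mael*+/- extracts and 0.40, 0.34 and 0.33 in the *Mael*-/- extracts. For *Trim28* it was 0.37, 0.27 and 0.38 in the *Mael*+/- extracts and 0.51, 0.44 and 0.18 in the *Mael*-/- extracts. These genes were above the median gene in 6 of 6 extracts by counts, as were *Ehmt1*, between 0.37 and 0.54, and *Ehmt2*, between 0.34 and 0.49. The fitted values in *Mael*+/- testes were 0.41 (SE 0.11), 0.37 (SE 0.11), 0.34 (SE 0.11) and 0.43 (SE 0.12) for *Dnmt1*, *Setdb1*, *Trim28* and *Ehmt1* (edgeR adjusted p 0.0168, 0.0203, 0.0261 and 0.0171). *Ehmt2* was at 0.44 (SE 0.18) there, which passed with the extract as a term (adjusted p 1.88e-06) but not without it (0.0661).

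*Dnmt3a* was below the median gene by counts in all extracts, at -0.20, -0.23 and -0.25 in the *Mael*+/- extracts and -0.22, -0.11 and -0.072 in the *Mael*-/- extracts. Its fitted value in *Mael*+/- testes was -0.23 (SE 0.12), with an edgeR adjusted p of 0.151 without and 0.00571 with the extract as a term. *Uhrf1*, at -0.25 to 0.056 over the 6 extracts, and *Dnmt3l*, at -0.77 to 0.89, were called in neither genotype.

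Per length, with exon and coding lengths from GENCODE vM21, the values were given without a test. *Dnmt3a* moved from -0.23 to 0.61 in *Mael*+/- and from -0.14 to 0.69 in *Mael*-/- testes, at percentiles 76.2 and 78.4 of 13634 and 13436 genes. *Dnmt3b* moved to -0.90 and -0.87, at percentiles 9.85 and 10.4. Per length the 2 de novo methyltransferases thus lay on opposite sides of the average gene, while by counts both were below the median gene in 6 of 6 extracts. The per-length value of *Dnmt3a* rests on its full annotated exons, whose use in testes was not tested. *Dnmt1* moved to -0.25 in *Mael*+/- testes. *Setdb1* moved to -0.41 and *Trim28* to -0.32. *Ehmt2*, whose exons are 93.1% coding, moved to -0.49, and *Uhrf1* to -0.51. *Suv39h2* and *Ehmt1* lay at the average gene, at -0.030 and 0.013. *Dnmt3l*, on few counts, was at 0.48. With RefSeq lengths the *Ehmt1* value was -0.14 and that of *Dnmt3a* 0.68.

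**Figure D3:**
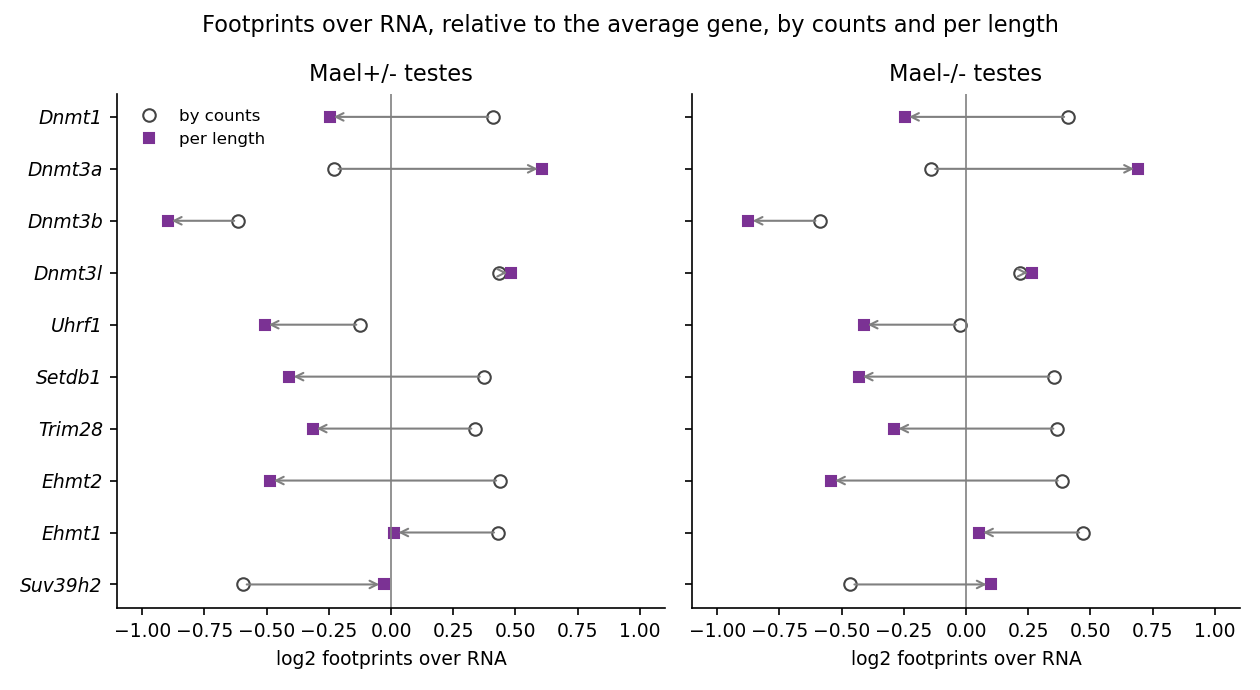
log2 ratio of footprints to RNA of each gene, relative to the average gene, by counts (open circles) and per length (filled squares), in Mael+/- (left) and Mael-/- testes (right), with arrows from the first to the second. Dnmt1, Setdb1, Trim28 and Ehmt2 cross from above to below 0, Dnmt3a crosses upward, and Dnmt3b is below 0 in both forms.

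The 10 genes also differed in how much they varied among extracts. *Dnmt3b*, with an SD of 0.23 log2 units over the 6 RNA libraries, and *Ehmt2*, with 0.18, were the most variable after *Dnmt3l*, at percentiles 75.1 and 61.8 of 13448 genes. *Suv39h2* (0.075), *Ehmt1* (0.080) and *Dnmt1* (0.091) were among the steadiest, at percentiles 9.61, 11.7 and 17.5. The highest RNA library was *Mael*+/- replicate 2 for 7 of the 10 genes. In that extract *Dnmt3b* was 0.42 log2 units above its mean over the extracts in RNA and 0.31 in footprints, *Ehmt2* 0.27 and 0.29, *Ehmt1* 0.14 and 0.19, *Dnmt3a* 0.15 and 0.10, and *Dnmt1* 0.14 and 0.11. In *Mael*+/- replicate 1, the extract with the most meiotic RNA, *Ehmt2* was 0.28 below its mean in RNA and 0.19 in footprints, and *Dnmt3a* 0.14 below in both. *Uhrf1* (0.060 and 0.20), *Trim28* (0.11 and 0.14) and *Setdb1* (0.0053 and 0.10) were above theirs there. The summed level of 10 spermatogonial markers was also highest in *Mael*+/- replicate 2, at 851, 1025 and 824 CPM in *Mael*+/- RNA replicates 1 to 3. The part of cell composition in these differences was not tested.

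**Figure D4:**
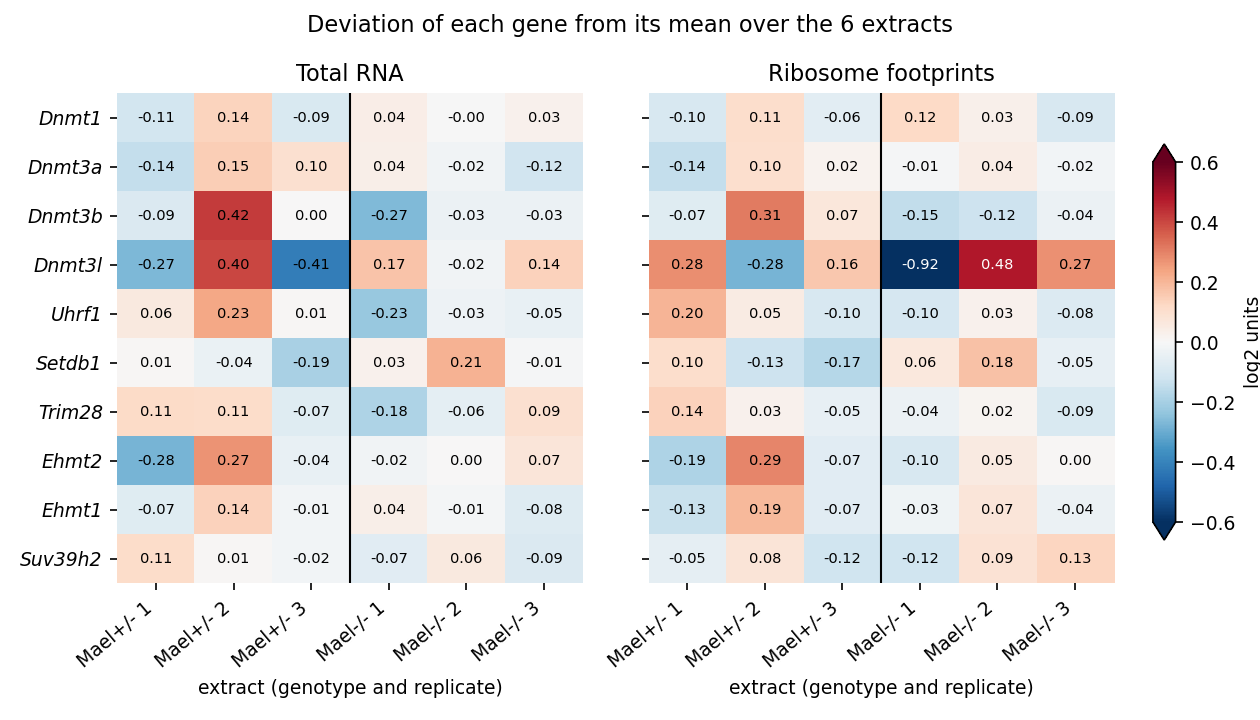
Deviation of each gene (log2 units) from its mean over the 6 extracts, in RNA (left) and footprints (right), with Mael+/- extracts left of the line and Mael-/- extracts right of it. Mael+/- replicate 2 is above the mean for 9 of 10 genes in RNA and 8 of 10 in footprints, with Dnmt3b and Ehmt2 high in both, and the large Dnmt3l values rest on 10 to 49 counts.

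The genes whose pattern over the 12 libraries was most like that of the 3 most variable ones were found by the root mean square difference of log2 CPM, centred within each assay, over 11233 genes that averaged 50 counts or more in each assay. *Mvd* and *Dclk2* were among the nearest to *Dnmt3b* (0.057 and 0.061, against a median of 0.23 for all genes). *Mvd*, for example, had 29.7, 38.3 and 32.9 CPM in *Mael*+/- RNA and 27.1, 30.3 and 31.9 in *Mael*-/- RNA. *Patz1*, *Zfp710* and *Gtpbp6* were nearest to *Ehmt2* (0.039, 0.045 and 0.045, against a median of 0.20). *Nudt6*, *Mpc1* and *Eaf2* were nearest to *Dnmt3l*, at a wider distance of 0.27 to 0.30.

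The last question was whether the partners of the 10 genes changed. None of 5 lists around them held a gene called between genotypes in RNA, footprints or translation efficiency. Medians in RNA were within 0.05 log2 units of 0 in 4 lists. The fifth, piRNA-directed DNA methylation, had a median of -0.24 in RNA and -0.27 in footprints, with no gene called, and of -0.084 and -0.091 without *Mael*+/- replicate 1. The median of the early meiotic markers in RNA was -0.36 with that extract and 0.18 without it, and that of the pachytene markers -1.22 and -0.43. The part of these cells in the list's median was not tested. Without it the HUSH list had medians of 0.20 and 0.16, those of the other 3 lists lay between -0.010 and 0.058, and no gene of the 5 lists was called.

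Of 13 tested partners and erasers of DNA methylation, 6 were above 0 and 7 below in RNA, with a median of -0.0054. The smallest p in RNA belonged to *Uhrf2*, a relative of *Uhrf1*, at 0.16 (SE 0.085), and *Hells*, a remodeler needed for methylation of repeats, at 0.26 (SE 0.15) (edgeR adjusted p 0.956 and 0.98). *Hells* had 294, 202 and 249 CPM in *Mael*+/- RNA and 313, 333 and 245 in *Mael*-/- RNA, with overlap. Of 16 partners of H3K9 methylation and HP1 proteins, 6 were above 0 and 10 below, with a median of -0.016. *Setdb2*, a relative of *Setdb1*, was at 0.23 (SE 0.092) and *Wiz*, a partner of G9a and GLP, at -0.32 (SE 0.14) (edgeR adjusted p 0.898 and 0.923). Without *Mael*+/- replicate 1 *Wiz* was at -0.15, and *Hells* at 0.39.

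Of the 4 tested genes of the HUSH complex, which silences young L1, and its partner MORC2, 3 were above 0 and 1 below, with a median of 0.042. *Morc2a* was at 0.14 (SE 0.11) and *Fam208a* (TASOR) at -0.093 (SE 0.19) (edgeR adjusted p 0.982 and 0.984), and without *Mael*+/- replicate 1 they were at 0.26 and 0.15. Of 11 H3K9 demethylases, 6 were above 0 and 5 below, with a median of 0.0029. *Kdm4b* was at 0.12 (SE 0.077) and *Phf2* at -0.16 (SE 0.11) (edgeR adjusted p 0.982 and 0.982). Leaving out *Mael*+/- replicate 1 put 8 demethylases above 0 and 3 below in RNA. In footprints 6 were above and 5 below with that extract, and 11 above and 0 below without it. The share of all genes above 0 without that extract was not taken, so these splits have no background to be read against. *Kdm4d* moved most in RNA, from -0.17 to 0.51, and no demethylase was called.

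Of 9 genes of piRNA-directed DNA methylation, the route on which *Mael* itself acts, 2 were above 0 and 7 below in both assays. *Tdrd9*, a helicase of the fetal piRNA pathway, had 187, 141 and 126 CPM in *Mael*+/- RNA and 111, 99.7 and 109 in *Mael*-/- RNA. *Mov10l1*, the helicase that starts piRNA processing, had 356, 233 and 216 CPM in *Mael*+/- and 206, 196 and 190.2 in *Mael*-/- RNA. All *Mael*-/- libraries were below all *Mael*+/- libraries for both genes, and *Mael*+/- replicate 1, the extract with the most pachytene marker RNA, was the highest. The part of those cells in the difference was not tested. The log2 fold changes were -0.51 (SE 0.14) and -0.45 (SE 0.17), and neither passed the test (edgeR adjusted p 0.609 and 0.863). RNA ranges of the genotypes were apart in 10.3% of all genes tested. Among the named genes of the other lists they were apart too for *Uhrf2*, *Setdb2* and *Kdm4b*, higher in *Mael*-/- testes, and for *Wiz*, lower there. Without *Mael*+/- replicate 1 the ratio of *Mael*-/- to *Mael*+/- means went from 0.704 to 0.799 for *Tdrd9* and from 0.735 to 0.878 for *Mov10l1*. The log2 values of *Asz1*, *Tex15* and *Piwil4* in RNA changed sign without that extract. In that order they went from -0.083 to 0.11, from -0.044 to 0.18 and from 0.11 to -0.057. *Piwil4* (MIWI2), the nuclear piRNA protein that guides methylation before birth, was low, with 5.59, 9.77 and 7.21 CPM in *Mael*+/- and 7.86, 8.48 and 8.13 in *Mael*-/- RNA.

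**Figure D5:**
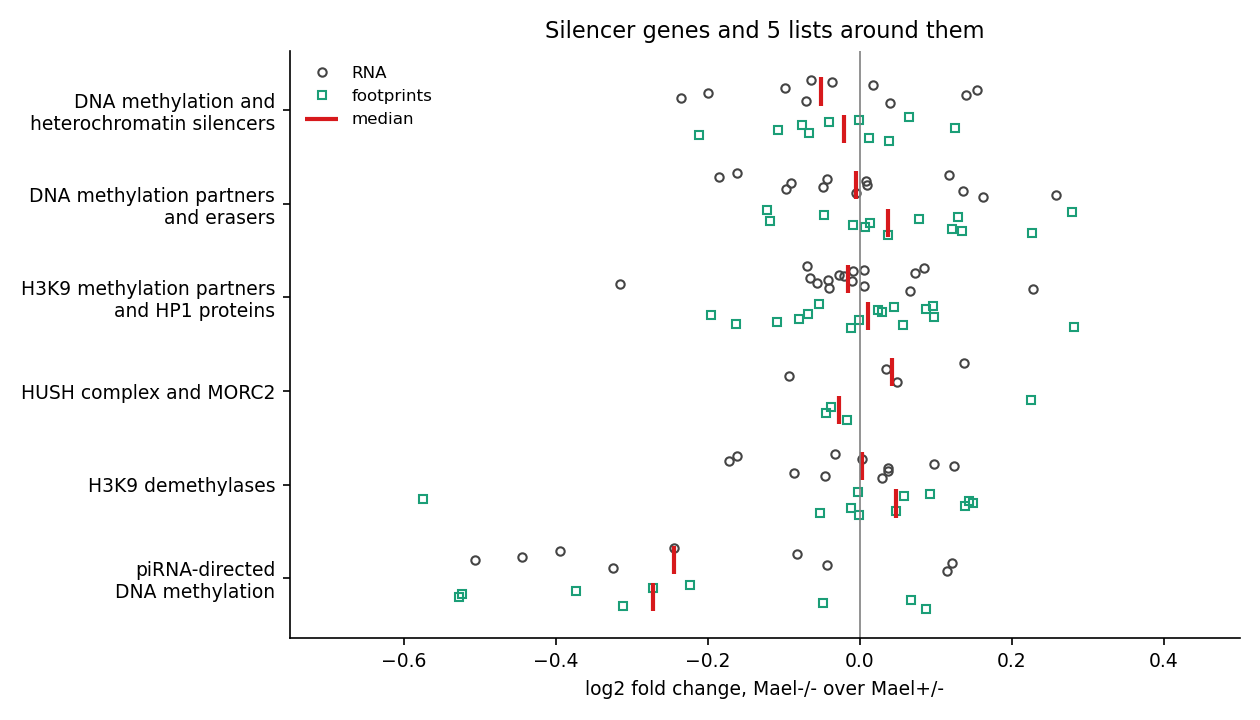
log2 fold change from Mael+/- to Mael-/- of the genes tested in both assays, in RNA (circles) and footprints (squares), for the 10 genes and 5 lists around them, with red bars at the medians. The 10 genes and 4 lists are centred near 0, and the genes of piRNA-directed DNA methylation lie mostly below 0, though none passed the test.

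In the comparison of footprints with RNA by counts, the share called among all genes was 48.1% in *Mael*+/- and 67.2% in *Mael*-/- testes. In *Mael*+/- testes 5 of 13 partners and erasers of DNA methylation were called, 8 of 16 partners of H3K9 methylation, 2 of 4 genes of the HUSH list, 6 of 11 H3K9 demethylases and 2 of 9 genes of the piRNA list. In *Mael*-/- testes it was 9, 12, 4, 11 and 6. With the extract as a term it was 8, 14, 3, 10 and 6 in *Mael*+/- testes, where 69.4% of all genes were called, and 10, 13, 4, 11 and 6 in *Mael*-/- testes, where 70.9% were. The calls added in *Mael*+/- testes included *Fam208a*, *Tdrd9*, *Piwil2*, *Tdrd1* and *Morc1*. Among the genes with the smallest p in *Mael*+/- testes, *Tet3*, which oxidises methylated cytosine, was at 1.21, while the methyl-CpG binder *Mbd2* was at -0.75 and *Tet1* at -0.60. *Tdg*, a DNA glycosylase, had 0 to 2 RNA counts beside 25 to 41 footprint counts per library. It passed the filter on low counts through its footprints alone, and is left out of these counts for that reason. Of the H3K9 list, *Cbx5* (HP1 alpha) was at -1.94 and *Setdb2* at -0.78, and *Wiz*, *Atf7ip* and *Prdm2* were at 2.21, 1.89 and 1.08. *Mphosph8* and *Pphln1* of the HUSH complex were at 0.68 and -0.34. The demethylases *Kdm3b*, *Phf2*, *Kdm4b*, *Phf8* and *Jmjd1c* were at 0.88, 0.75, 0.57, 0.48 and 0.45, and *Asz1* and *Piwil4* of the piRNA list at 0.65 and 0.72. These are log2 values by counts and carry the effect of untranslated length described above.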

How the data were processed

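Total RNA and ribosome footprints were sequenced from 6 extracts of P16 testes. Per the labels and the study's methods, the authors clipped footprint reads and removed those of ribosomal RNA with Bowtie 1.2.2, aligned footprint and RNA reads to mm10 with STAR 2.6.0c and counted with featureCounts (Subread 1.6.4), over whole mRNAs for RNA and coding sequence for footprints, and deposited raw counts for genes and repeat copies. Collapsing of duplicates, handling of reads with several alignments and strand in counting are not given in the sources used here. The authors' own DESeq2 1.24.0 comparisons were not used.

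Gene rows were fitted in R 4.3.3 with edgeR 4.0.16 (TMM, filterByExpr, quasi-likelihood F-test, Benjamini-Hochberg over all genes tested, called at adjusted p under 0.05), with translation efficiency as the interaction of genotype and assay. Alternatives were DESeq2 1.42.0, RLE scaling, no filter, limma 3.58.1 voom, a replicate block, left-out libraries and counts per length. Scripts were tested on simulated data. RNA and footprint libraries of an extract are aliquots of it per the methods, and they deviated together (r 0.64 to 0.79 in *Mael*+/- and 0.24 to 0.25 in *Mael*-/- testes, 12228 genes). In the RNA and footprint comparisons of genotypes, p-values measure the spread between 3 extracts a group. The main fits of translation efficiency and of footprints against RNA took libraries as independent, though both assays share extracts. With the extract as a term, p-values there measure the spread of differences within extracts.

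The 10 genes, the lists and the rules were chosen with earlier results of these data known. Named were *Mael*, the 10 genes, from each list up to 5 called genes with the smallest p (or the 2 with the smallest p in RNA where none was called), and the 3 genes nearest in pattern to each of the 3 most variable of the 10. Of these, 2 genes are not reported here.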

Additional observations from a re-analysis of the deposited data

How the results depend on the processing

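The absence of called genes among the 10 between genotypes held under DESeq2, RLE scaling, no filter on low counts, limma voom with quality weights, the replicate block and each left-out library, for all 3 measures; the smallest edgeR adjusted p under any of them was 0.496 in RNA (*Uhrf1*) and 0.602 in footprints (*Dnmt3b*). Replicate numbers were not taken as pairs across genotypes, since no such pairing is stated. Same-numbered libraries deviated together with r of 0.0093 to 0.26 in RNA and 0.044 to 0.24 in footprints. Some of these lie above the limit of 0.1 set for pairing, so pairing is not excluded and the replicate block was run as an alternative. With the replicate block, the median log2 fold change of the 10 was -0.050 for RNA, -0.011 for footprints and 0.024 for translation efficiency, and *Dnmt3b* and *Uhrf1* in RNA had unadjusted p of 0.0477 and 0.0478 (edgeR adjusted p 0.726 for both). Apart from the 2 calls named above, of *Ehmt2* and *Dnmt3a* in *Mael*+/- testes, the extract block changed no call of the 10 genes. It raised the called genes of the 5 lists in *Mael*+/- testes, as given above.

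Values close to 0 changed sign. Under voom, *Ehmt2* was at -0.019 in RNA, *Dnmt3a* at -0.0059 in footprints and *Trim28* at -0.0032 in translation efficiency. Under the replicate block *Ehmt1* was at 0.0049 in footprints, and *Dnmt1* in translation efficiency was at 0.0023 with DESeq2, 0.0010 with RLE and 0.0050 without the filter. The footprint median of the 10 ran from -0.054 to 0.080 over left-out libraries, and the number of the 10 called in footprints against RNA of *Mael*+/- testes from 2 to 6. With 1 library left out, RNA values ran from -0.0054 to 0.12 for *Dnmt1*, -0.017 to 0.44 for *Dnmt3l*, -0.10 to 0.17 for *Ehmt2* and -0.082 to 0.026 for *Ehmt1*. Footprint values ran from -0.014 to 0.10 for *Dnmt1*, -0.056 to 0.066 for *Dnmt3a*, -0.35 to 0.30 for *Dnmt3l*, -0.14 to 0.11 for *Ehmt2* and -0.067 to 0.10 for *Ehmt1*. With a library or an extract left out, translation efficiency ran from -0.085 to 0.066 for *Dnmt1*, -0.15 to 0.14 for *Dnmt3b*, -0.63 to 0.19 for *Dnmt3l*, -0.083 to 0.062 for *Setdb1*, -0.041 to 0.13 for *Trim28*, -0.21 to 0.099 for *Ehmt2* and -0.027 to 0.14 for *Ehmt1*. Leaving out single libraries, translation efficiency of *Dnmt3l* ran from -0.49 to 0.16 and that of *Trim28* had its lowest value at -0.039. Leaving out both libraries of an extract turned the sign for *Dnmt1* (0.0067, 0.017 and 0.057 without *Mael*+/- 1, *Mael*+/- 3 and *Mael*-/- 3), *Dnmt3b* (-0.036 and -0.024 without *Mael*+/- 2 and *Mael*-/- 1), *Dnmt3l* (0.0071 and 0.19 without *Mael*+/- 3 and *Mael*-/- 1), *Setdb1* (0.022 without *Mael*+/- 1) and *Trim28* (-0.013, -0.041 and -0.011 without *Mael*+/- 2, *Mael*-/- 1 and *Mael*-/- 2). Footprints against RNA in *Mael*-/- testes ran from -0.089 to 0.61 for *Dnmt3l* and -0.088 to 0.0064 for *Uhrf1*.

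Putting counts per length turned the sign by construction. In *Mael*+/- testes the values with GENCODE and RefSeq lengths were -0.25 and -0.18 for *Dnmt1*, -0.41 and -0.34 for *Setdb1*, and -0.32 and -0.25 for *Trim28*, and with RefSeq lengths -0.14 for *Ehmt1* and 0.018 for *Suv39h2*. In *Mael*-/- testes they were -0.25 and -0.18 for *Dnmt1*, -0.43 and -0.36 for *Setdb1*, -0.29 and -0.22 for *Trim28*, -0.54 and -0.48 for *Ehmt2* and 0.10 and 0.15 for *Suv39h2*, and with RefSeq lengths -0.10 for *Ehmt1*. RefSeq lengths were chosen after seeing the data. Over all genes, left-out libraries moved the called genes from 17 to between 2 (without *Mael*-/- replicate 1) and 64 (without *Mael*+/- replicate 1) in RNA, and from 8 to between 2 and 17 in footprints. Of 60 values of the 10 genes in footprints against RNA of *Mael*+/- testes with 1 library left out, 13 fell short of the threshold and 2 newly passed it. Depth limited *Dnmt3l* most, with 10 to 49 counts per library.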
